A study of Homo sapiens with 6 samples.

Results

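The aminoacyl-tRNA synthetases are the enzymes that join each amino acid to its transfer RNA, and their transcripts were followed here in 3 libraries labelled GFP-CCNB1IP1 and 3 libraries labelled GFP. Members were chosen by gene symbol with a fixed pattern (the letter of the amino acid followed by "ars", with Eprs for the joint glutamate and proline enzyme), which found 38 of the 53492 genes in the tables. Of these, 21 were placed with the cytosolic enzymes and 17, whose symbols end in 2, with the mitochondrial enzymes, Tarsl2 being cytosolic despite its symbol. The pattern reads symbols only and uses no measured value, but the choice was made with earlier results of these data known.

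Per the labels, the GFP-CCNB1IP1 cells were transfected with pCS2-eGFP-CCNB1IP1 and the GFP cells with pCS2-eGFP-N, so enhanced green fluorescent protein (eGFP) was introduced in both, joined to CCNB1IP1 in the first. CCNB1IP1 is a ubiquitin ligase that binds cyclin B1. The cells are labelled SH-SY5Y, a neuroblastoma line of human origin with features of sympathetic neurons, and this 1 line was used throughout. The labels do not tie replicates to separate cultures. The p-values therefore judge a difference against the spread between these libraries within a group, which may be technical.

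Cells translate in the cytosol and, separately, inside mitochondria, and most amino acids have a nuclear gene for each site. In mammals glycine and lysine are exceptions, where the same gene (Gars, Kars) serves both. Several cytosolic enzymes, together with 3 scaffold proteins (Aimp1, Aimp2 and Eef1e1), form the multisynthetase complex. A number of the cytosolic genes are also known targets of ATF4, the transcription factor that acts when amino acids are short or the endoplasmic reticulum is stressed.

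The tables carried mouse gene names although the labels name a human line, and 0 of their 53492 identifiers matched a human gene table, so all values are those listed for mouse genes. The organism of the cells was not settled, and levels and ratios below hold as expression only if the annotation is that of the cells. The mouse Ccnb1ip1 gene averaged 0.108 ± 0.0981 FPKM in GFP-CCNB1IP1 libraries and 0.0762 ± 0.0463 FPKM in GFP libraries (SD, n = 3 each), and the introduced sequence was not analysed here, so the group labels rest on the labels alone. Of 10 noradrenergic neuroblastoma markers, 8 reached a mean of 1 FPKM, with summed levels of 376.6 to 391.2 FPKM in GFP-CCNB1IP1 libraries and 379.6 to 408.4 FPKM in GFP libraries. Of 6 mesenchymal markers, Vim and Fn1 reached 1 FPKM and Yap1 was at 0, and the list summed to 796.1 to 884.1 FPKM in GFP-CCNB1IP1 libraries and 745.3 to 818.3 FPKM in GFP libraries. Most of that sum was Vim, with 787.2 FPKM in GFP-CCNB1IP1 libraries and 718.3 FPKM in GFP libraries on average, while Fn1 averaged 52.3 FPKM in GFP-CCNB1IP1 libraries and 58.2 FPKM in GFP libraries, without overlap (limma, adjusted p = 0.357). The 5 glial markers summed to 1.44 to 1.76 FPKM in GFP-CCNB1IP1 libraries and 0.906 to 0.991 FPKM in GFP libraries. The 5 immune markers summed to 0.430 to 2.02 FPKM in GFP-CCNB1IP1 libraries and 0.566 to 0.830 FPKM in GFP libraries. The 5 fibroblast markers summed to 2.20 to 3.06 FPKM in GFP-CCNB1IP1 libraries and 1.73 to 3.01 FPKM in GFP libraries, with Col3a1 and Lum at 0. Read totals were not analysed here. Relative depth, estimated from the deposited confidence intervals with the GFP mean at 1, was 0.989, 0.743 and 1.04 in GFP-CCNB1IP1 replicates 1 to 3 and 0.993, 1.06 and 0.950 in GFP replicates 1 to 3.

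Levels were read as FPKM, which scales the fragments of a gene by its transcript length and by library size, so that genes can be set side by side. The cytosolic enzymes were the abundant part of the family. Their median level over the 6 libraries was 62.5 FPKM, with a range over genes of 7.92 to 181.4 FPKM, while the 17 mitochondrial enzymes had a median level of 8.55 FPKM and a range of 0.939 to 20.4 FPKM. Of all genes tested the median level was 10.8 FPKM. In bulk RNA, fewer cells that express a gene and less RNA per cell cannot be told apart.

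**Figure D1:**
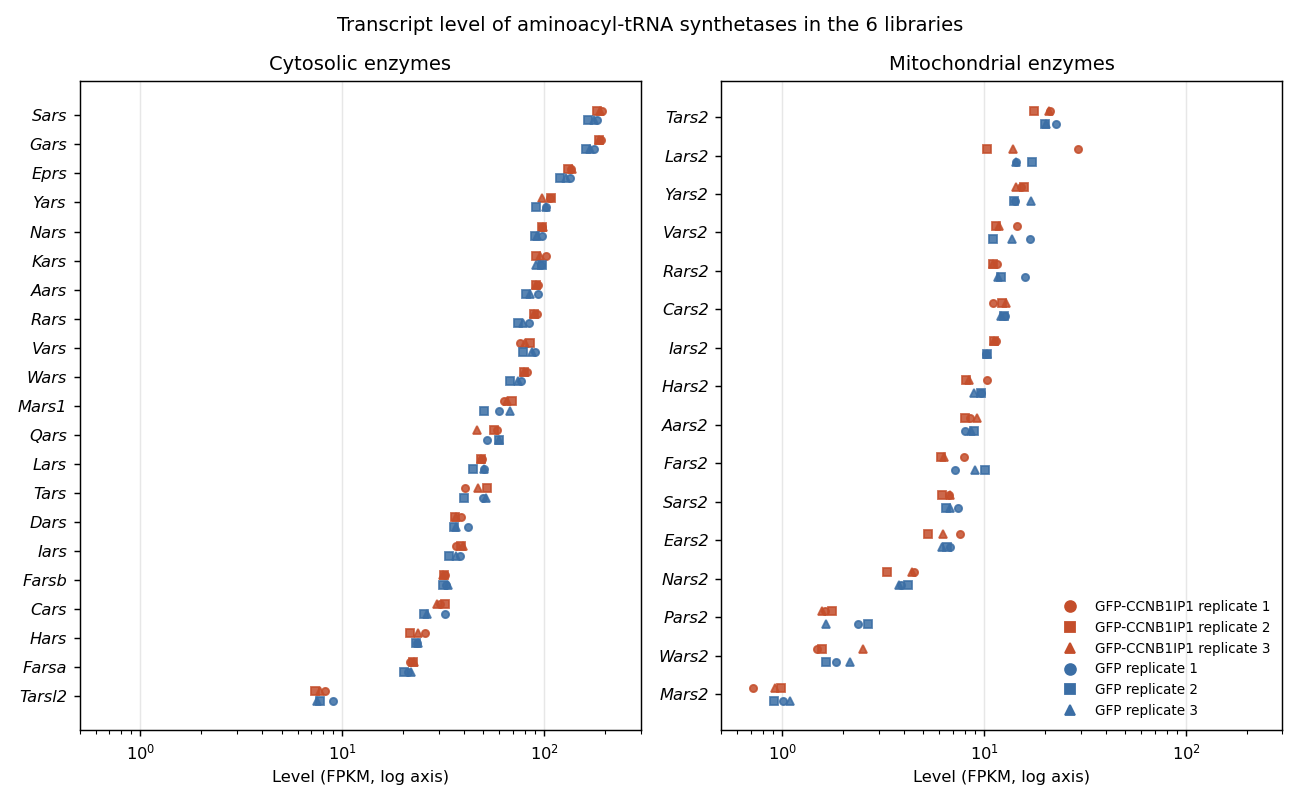
Level of 37 synthetase transcripts in FPKM on a log axis, with cytosolic enzymes in the left panel and mitochondrial enzymes in the right panel, each ordered by mean level. Each point is a library, GFP-CCNB1IP1 in red above and GFP in blue below; Sars and Gars lie at the top of the cytosolic enzymes, and Lars2 has a single library, GFP-CCNB1IP1 replicate 1, at 29.1 FPKM.

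Sars, the cytosolic seryl enzyme (ENSMUSG00000068739.14, chromosome 3, 108332181 to 108352525), had 192.8, 181.7 and 189.7 FPKM in GFP-CCNB1IP1 libraries, against 182.7, 165.1 and 176.7 FPKM in GFP libraries. The groups overlapped, and GFP replicate 2 was the lowest library. Positions are those of the deposited tables, for which the sources used here name no build. Gars, the glycyl enzyme of both compartments (ENSMUSG00000029777.11, chromosome 6, 55014992 to 55056485), had 191.1, 186.0 and 186.9 FPKM in GFP-CCNB1IP1 libraries, against 175.7, 160.3 and 168.0 FPKM in GFP libraries. Its groups did not overlap.

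Eprs, which charges both glutamate and proline from a single protein of the multisynthetase complex, followed. It had 136.3, 131.6 and 137.5 FPKM in GFP-CCNB1IP1 libraries, against 133.7, 119.9 and 128.6 FPKM in GFP libraries. Yars, the cytosolic tyrosyl enzyme, had 106.6, 108.1 and 96.98 FPKM in GFP-CCNB1IP1 libraries, against 102.5, 90.7 and 102.3 FPKM in GFP libraries. Both pairs of groups overlapped, again with GFP replicate 2 lowest.

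Kars, the lysyl enzyme of both compartments (ENSMUSG00000031948.15, chromosome 8, 112720075 to 112737955), had 102.0, 90.7 and 95.1 FPKM in GFP-CCNB1IP1 libraries, against 96.5, 97.5 and 90.7 FPKM in GFP libraries. The groups overlapped, with GFP-CCNB1IP1 replicate 1 the highest library. Its listed pseudogene, Kars-ps1, was at 0 in all 6 libraries. Nars, Aars, Rars, Vars, Wars and Mars1 (the asparaginyl, alanyl, arginyl, valyl, tryptophanyl and methionyl enzymes) had mean levels over the 6 libraries between 62.5 and 95.6 FPKM. Qars, Lars, Tars, Dars, Iars, Farsb, Cars, Hars and Farsa had mean levels between 21.7 and 55.3 FPKM. Farsa and Farsb, the subunits of the cytosolic phenylalanyl enzyme, stood at mean levels of 21.7 and 32.2 FPKM. Tarsl2, a further cytosolic threonyl enzyme, was the lowest of the 21 with a mean level of 7.92 FPKM, against 46.8 FPKM for Tars.

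Among mitochondrial enzymes Tars2, the threonyl enzyme, had the highest mean level. It had 21.3, 17.6 and 20.8 FPKM in GFP-CCNB1IP1 libraries, against 22.6, 20.1 and 20.2 FPKM in GFP libraries. Lars2, the leucyl enzyme (ENSMUSG00000035202.9, chromosome 9, 123195992 to 123291731), had 29.1, 10.4 and 13.9 FPKM in GFP-CCNB1IP1 libraries, against 14.3, 17.3 and 14.4 FPKM in GFP libraries. GFP-CCNB1IP1 libraries held both its highest and its lowest values, and their coefficient of variation was 55.9%, the highest of the 38 members in either group.

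Yars2, the mitochondrial tyrosyl enzyme, had 15.2, 15.7 and 14.4 FPKM in GFP-CCNB1IP1 libraries, against 14.2, 14.1 and 16.99 FPKM in GFP libraries. Vars2, the valyl enzyme, had 14.5, 11.5 and 11.9 FPKM in GFP-CCNB1IP1 libraries, against 16.9, 11.1 and 13.7 FPKM in GFP libraries. The groups overlapped for both. Rars2, Cars2, Iars2, Hars2, Aars2, Fars2, Sars2, Ears2 and Nars2 had mean levels between 4.01 and 12.2 FPKM. The low end was held by Pars2 with a mean level of 1.94 FPKM, Wars2 with 1.87 FPKM and Mars2, the mitochondrial methionyl enzyme, with 0.939 FPKM, which was the 1 member below the filter of 1 FPKM used for testing. Replicates lay closer for the cytosolic enzymes, whose levels were also higher, and the groups of genes compared were not matched for level. The median coefficient of variation within GFP-CCNB1IP1 libraries was 3.39% for cytosolic, 12.9% for mitochondrial and 7.15% for all genes tested. Within GFP libraries it was 6.62% for cytosolic, 9.19% for mitochondrial and 7.76% for all genes tested.

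For every amino acid with an enzyme in each compartment the cytosolic transcript was above the mitochondrial one in all 6 libraries, in 17 of 17 pairs. Eprs stands in both the glutamate and the proline pair, so the pairs are not all of separate genes. The ratio of mean levels in a pair ran from 2.29 to 67.6 with a median of 6.71. The 3 highest ratios were those of Pars2, Mars2 and Wars2, the 3 mitochondrial enzymes with the lowest levels. The proline ratio (Eprs over Pars2) was 84.2, 74.8 and 87.3 in GFP-CCNB1IP1 libraries, against 56.1, 45.1 and 77.7 in GFP libraries, and its groups overlapped. The methionine ratio (Mars1 over Mars2) was 88.3, 70.3 and 70.9 in GFP-CCNB1IP1 libraries, against 59.2, 55.2 and 61.7 in GFP libraries, with no overlap. The tryptophan ratio (Wars over Wars2) was 55.2, 50.7 and 31.7 in GFP-CCNB1IP1 libraries, against 41.9, 40.7 and 34.4 in GFP libraries, and overlapped.

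The members behind these ratios had the following levels. Mars1 had 63.5, 69.0 and 65.2 FPKM in GFP-CCNB1IP1 libraries, against 59.9, 50.1 and 67.4 FPKM in GFP libraries. Mars2 had 0.719, 0.983 and 0.920 FPKM in GFP-CCNB1IP1 libraries, against 1.01, 0.908 and 1.09 FPKM in GFP libraries. Each overlapped between the groups taken alone. Pars2 had 1.62, 1.76 and 1.58 FPKM in GFP-CCNB1IP1 libraries, against 2.38, 2.66 and 1.66 FPKM in GFP libraries, and Wars2 had 1.48, 1.57 and 2.52 FPKM in GFP-CCNB1IP1 libraries, against 1.84, 1.66 and 2.17 FPKM in GFP libraries. The deposited intervals imply as few as 31.5 and 29.4 fragments behind single values of Pars2 and Wars2, so their ratios carry a wide counting error.

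The lowest ratios were those of threonine, cysteine and histidine, at 2.29, 2.41 and 2.56. The threonine ratio was 1.91, 2.96 and 2.26 in GFP-CCNB1IP1 libraries, against 2.21, 2.00 and 2.53 in GFP libraries. Tars had 40.5, 52.0 and 47.1 FPKM in GFP-CCNB1IP1 libraries, against 49.9, 40.2 and 51.2 FPKM in GFP libraries, and these groups overlapped. The cysteine ratio was 2.75, 2.64 and 2.30 in GFP-CCNB1IP1 libraries, against 2.57, 2.04 and 2.19 in GFP libraries. Cars had 30.5, 32.4 and 29.4 FPKM in GFP-CCNB1IP1 libraries, against 32.4, 25.5 and 26.4 FPKM in GFP libraries. Cars2 had 11.1, 12.3 and 12.8 FPKM in GFP-CCNB1IP1 libraries, against 12.6, 12.5 and 12.1 FPKM in GFP libraries. The cysteine groups overlapped in all 3 measures.

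Hars and Hars2, the cytosolic and mitochondrial histidyl enzymes, lie next to each other on chromosome 18 and their listed spans (36899581 to 36916258 and 36916061 to 36925615) share 198 bases. Hars had 25.7, 21.6 and 23.6 FPKM in GFP-CCNB1IP1 libraries, against 23.4, 23.1 and 23.8 FPKM in GFP libraries. Hars2 had 10.3, 8.09 and 8.42 FPKM in GFP-CCNB1IP1 libraries, against 9.67, 9.62 and 8.95 FPKM in GFP libraries. The ratio stayed between 2.40 and 2.80 in all 6 libraries. Strand was not stated for the counting, so reads in the shared bases cannot be given to either gene.

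**Figure D2:**
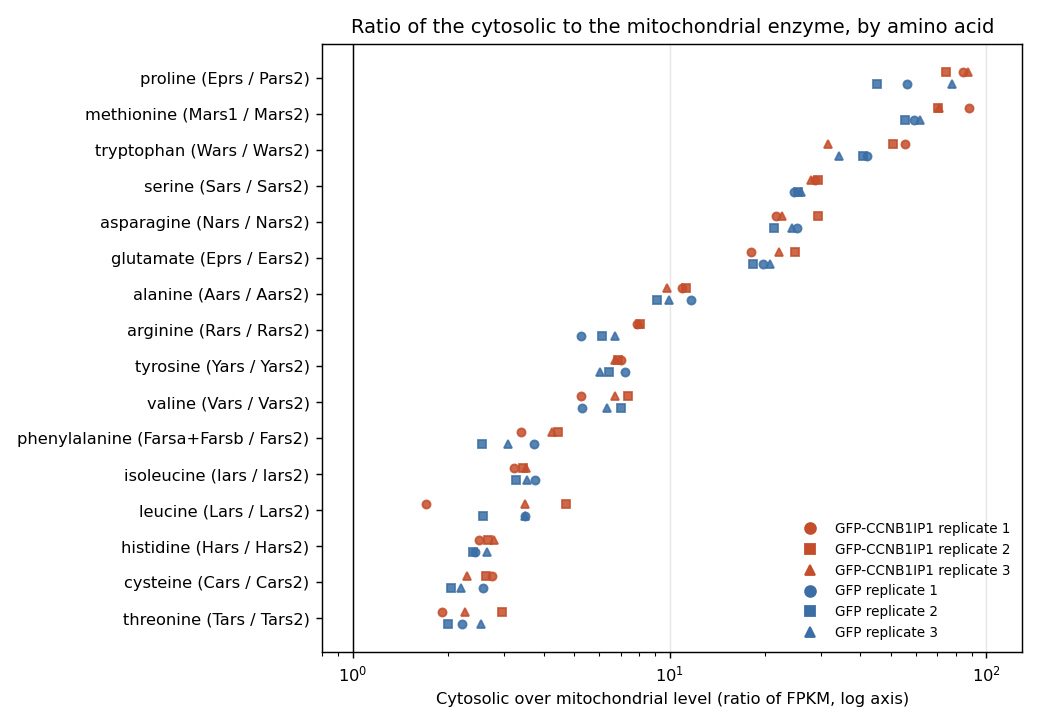
Ratio of the cytosolic to the mitochondrial FPKM for 16 amino acids on a log axis, 1 point per library, GFP-CCNB1IP1 in red above and GFP in blue below, with the vertical line at a ratio of 1. For phenylalanine the mean of Farsa and Farsb is used; every point lies right of the line, and methionine, serine and arginine are the pairs whose groups do not overlap.

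No synthetase passed the adjusted threshold between GFP-CCNB1IP1 and GFP libraries. Of 37 members tested, 0 passed an adjusted p under 0.05 (limma on log2(FPKM + 1), Benjamini-Hochberg adjustment over 13231 genes, smallest adjusted p of a member 0.292), where 1 gene, or 0.00756% of all genes tested, passed. At an unadjusted p under 0.05, 3 members were higher in GFP-CCNB1IP1 libraries and 1 was lower, where 5.59% of all genes were higher and 5.77% lower. The groups did not overlap for 4 members that were higher and 1 that was lower, where 8.70% of all genes tested were higher without overlap and 8.90% lower. These counts are near the background. The 95% intervals are per gene and unadjusted, so they set no joint bound on what could have been missed. Over the members their median reach was 0.180 to either side of the estimate on the log2(FPKM + 1) scale. It was 0.135 for cytosolic and 0.263 for mitochondrial enzymes, and single members reached further, such as Lars2 from -0.637 to 0.799.

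The signs of the fitted differences were counted by compartment. Of the 21 cytosolic enzymes 15 had a positive log2 fold change and 6 a negative one, with a median of 0.069, a ratio to GFP of 1.05 for FPKM + 1. Of the 16 tested mitochondrial enzymes 5 were positive and 11 negative, with a median of -0.039, a ratio of 0.974. Over all genes tested 51.4% were positive and the median was 0.004. Cytosolic enzymes with no overlap were Rars, Gars and Wars, which were also the 3 at an unadjusted p under 0.05, all higher. Among mitochondrial enzymes Iars2 was higher and Rars2 lower without overlap, and Fars2 was lower at an unadjusted p under 0.05.

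**Figure D3:**
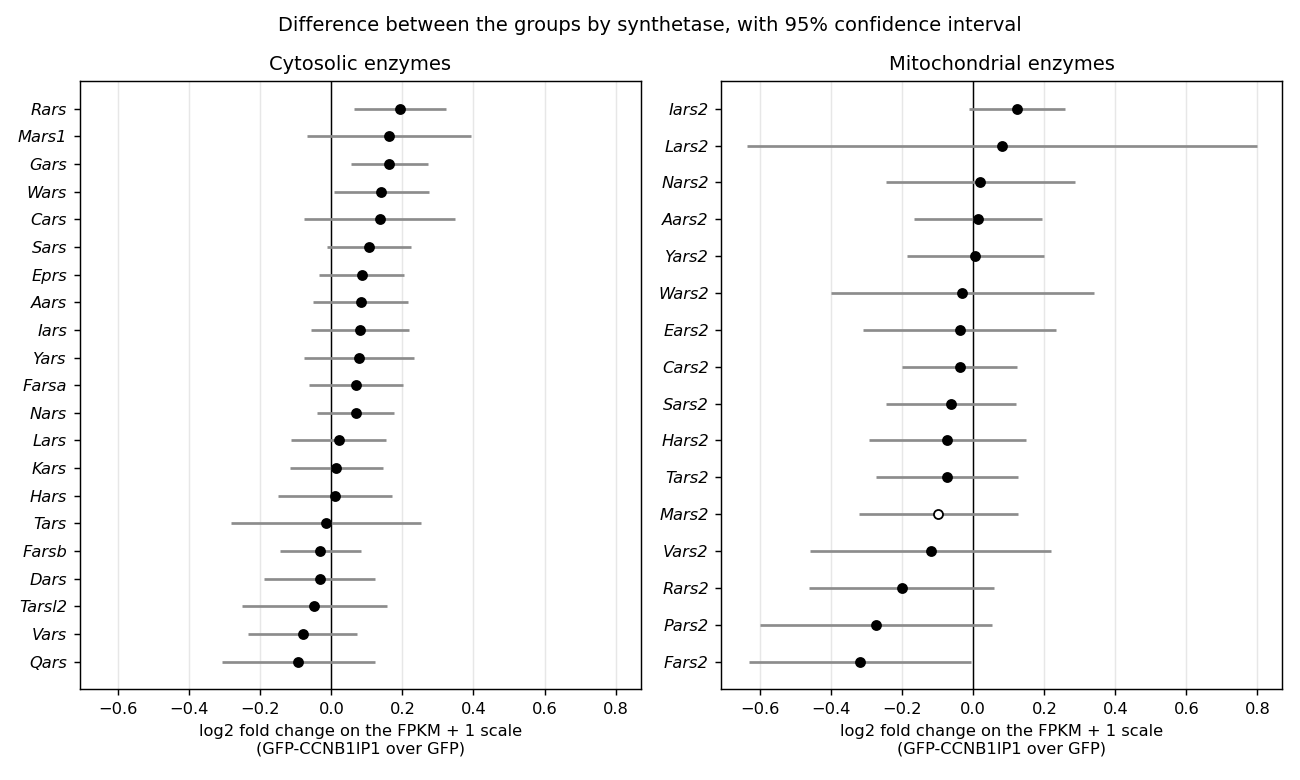
Fitted log2 fold change of 37 synthetases on the FPKM + 1 scale, GFP-CCNB1IP1 over GFP, with bars for the 95% confidence interval, cytosolic enzymes left and mitochondrial enzymes right. Filled points passed the filter, and the open point is Mars2, read from the fit with no filter; Rars, Gars and Wars have intervals above 0 and Fars2 below 0 before adjustment, and none of those shown passed after it.

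Rars, the arginyl enzyme of the multisynthetase complex (ENSMUSG00000018848.5, chromosome 11, 35699208 to 35725333), had the smallest p of the family. It had 91.9, 89.2 and 88.9 FPKM in GFP-CCNB1IP1 libraries, against 83.8, 73.8 and 78.4 FPKM in GFP libraries. Its fitted difference was 0.193 on the log2 scale (SE 0.056, limma, adjusted p = 0.292). Its mitochondrial partner Rars2 had 11.6, 11.1 and 11.1 FPKM in GFP-CCNB1IP1 libraries, against 16, 12.1 and 11.7 FPKM in GFP libraries (-0.20 on the log2 scale, SE 0.113, limma, adjusted p = 0.545). Without GFP replicate 1 the difference of Rars2 was -0.067. The 3 GFP-CCNB1IP1 libraries lay within 11.1 to 11.6 FPKM, all below the GFP libraries, of which replicate 1 was the highest. That lack of overlap was narrow, with 11.62 FPKM in GFP-CCNB1IP1 replicate 1 against 11.65 FPKM in GFP replicate 3. The deposited intervals of Rars2 reached up to 18.6% above a value. The arginine ratio was 7.91, 8.04 and 8.01 in GFP-CCNB1IP1 libraries, against 5.24, 6.12 and 6.73 in GFP libraries.

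Gars followed at 0.162 on the log2 scale (SE 0.047, limma, adjusted p = 0.292). Wars, the cytosolic tryptophanyl enzyme, known to be induced by interferon, had 81.8, 79.5 and 79.8 FPKM in GFP-CCNB1IP1 libraries, against 76.9, 67.4 and 74.6 FPKM in GFP libraries. Its difference was 0.140 (SE 0.058, adjusted p = 0.423). The unadjusted p of Wars (limma) was 0.081 with TPM and 0.083 without the trend. With single libraries left out it stayed under 0.05 only without GFP replicate 1. For Sars the difference was 0.105 (SE 0.051, adjusted p = 0.492), and the serine ratio (Sars over Sars2) was 28.7, 29.3 and 28.0 in GFP-CCNB1IP1 libraries, against 24.7, 25.5 and 26.0 in GFP libraries. Methionine, serine and arginine were the 3 of 17 pairs whose ratio was higher without overlap, and 0 were lower. Single genes were higher without overlap in 8.70% of cases and lower in 8.90%. No such share was computed for ratios of gene pairs, so the count of pairs has no background here.

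Fars2, the mitochondrial phenylalanyl enzyme (ENSMUSG00000021420.14, chromosome 13, 36301395 to 36910254), had the most negative difference. It had 7.99, 6.09 and 6.35 FPKM in GFP-CCNB1IP1 libraries, against 7.21, 10.1 and 9.01 FPKM in GFP libraries, and the groups overlapped (log2 fold change -0.32, SE 0.135, limma, adjusted p = 0.430). As few as 30.7 fragments stand behind a value, and the unadjusted p was not under 0.05 with no filter, without the trend, with the replicate block or with any of 4 single libraries left out. The listed span of Fars2 shares 920 bases with Nrn1, which had 38.3, 31.7 and 35.8 FPKM in GFP-CCNB1IP1 libraries, against 41.0, 42.1 and 34.3 FPKM in GFP libraries. Without strand, the part of those shared bases in the Fars2 value was not tested.

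Iars2, the mitochondrial isoleucyl enzyme (ENSMUSG00000026618.12, chromosome 1, 185016923 to 185061593), had 11.4, 11.2 and 11.2 FPKM in GFP-CCNB1IP1 libraries, against 10.2, 10.4 and 10.3 FPKM in GFP libraries. These were among the tightest replicates of the family, with coefficients of variation of 0.944% in GFP-CCNB1IP1 libraries and 0.974% in GFP libraries. The log2 fold change was 0.123 (SE 0.058, limma, adjusted p = 0.479). The unadjusted p of Iars2 (limma) was 0.069, and was under 0.05 only with no filter, at 0.014. The span of Iars2 shares 2034 bases with Rab3gap2, which averaged 19.1 ± 0.383 FPKM in GFP-CCNB1IP1 libraries and 20.8 ± 1.13 FPKM in GFP libraries (SD, n = 3 each). Rab3gap2 was thus lower, without overlap, where Iars2 was higher. How reads in those shared bases were divided is uncertain. Pars2 and Lars2 had log2 fold changes of -0.27 (adjusted p = 0.514) and 0.081 (adjusted p = 0.948). Without GFP-CCNB1IP1 replicate 1 that of Lars2 was -0.32 (adjusted p = 0.539).

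The fitted log2 difference of Kars was 0.014 (SE 0.057, limma, adjusted p = 0.952), with an interval of -0.118 to 0.146. For Mars1 it was 0.163 (SE 0.0997, adjusted p = 0.582), but 0.051 without GFP replicate 2 and 0.261 without GFP replicate 3. Its span ends against that of Ddit3, a stress-induced transcription factor gene, with 68 bases in common. Ddit3 had 158.2, 150.6 and 143.6 FPKM in GFP-CCNB1IP1 libraries, against 126.3, 129.7 and 122.1 FPKM in GFP libraries, and how reads in the shared bases were divided is uncertain. Exosc6 shares 1326 bases with Aars, lies within its span and had a mean of 8.89e-17 FPKM. Tarsl2 shares 923 bases with Tm2d3 (mean 23.1 FPKM), and Cars2 shares 984 bases with Naxd (mean 25.6 FPKM). How reads in these shared bases were divided is also uncertain. Vars and Qars had the most negative differences of the cytosolic enzymes, with log2 fold changes of -0.081 (adjusted p = 0.686) and -0.093 (adjusted p = 0.748). With single libraries left out Vars ran from -0.138 to -0.042, and Qars was 0.004 without GFP-CCNB1IP1 replicate 3.

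Summed over members, cytosolic transcripts came to 1574, 1556 and 1543 FPKM in GFP-CCNB1IP1 libraries, against 1543, 1396 and 1498 FPKM in GFP libraries. Mitochondrial transcripts summed to 169.2, 139.1 and 148.3 FPKM in GFP-CCNB1IP1 libraries, against 161.6, 154.5 and 154.8 FPKM in GFP libraries. The ratio of the sums was 9.31, 11.2 and 10.4 in GFP-CCNB1IP1 libraries, against 9.55, 9.04 and 9.68 in GFP libraries, and the groups overlapped. With Lars2 left out, a choice made after its values were seen, the ratio was 11.2, 12.1 and 11.5 in GFP-CCNB1IP1 libraries, against 10.5, 10.2 and 10.7 in GFP libraries, with no overlap. No p is given for a sum over chosen members.

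The cytosolic enzymes were low in a single library. GFP replicate 2 held the lowest of the 6 values for 15 of the 21 cytosolic enzymes, or 71.4%, against 16.9% of all genes tested and 2 of the 17 mitochondrial enzymes. Its relative depth was 1.06, and the part of depth in these values was not tested. Without it the median log2 fold change of the cytosolic enzymes was 0.036, with 13 positive and 8 negative, and the range with each of the other libraries left out was 0.060 to 0.102. Without GFP replicate 2, Rars and Gars had log2 fold changes of 0.149 (adjusted p = 0.330) and 0.129 (adjusted p = 0.338), while that of Wars was 0.085 (adjusted p = 0.505). For the mitochondrial enzymes the shallowest library, GFP-CCNB1IP1 replicate 2, held the lowest value for 8 of 17, where it did so for 20.2% of all genes tested. Without it their median log2 fold change was -0.016, and without GFP-CCNB1IP1 replicate 1 it was -0.099. The part of depth in this was not tested.

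Grouped by what is known of them, the 11 cytosolic enzymes listed as ATF4 targets (Aars, Cars, Eprs, Gars, Iars, Mars1, Nars, Sars, Tars, Wars and Yars) had 10 positive log2 fold changes of 11 and a median of 0.085, with 0 passing the adjusted threshold and 2 higher at an unadjusted p under 0.05 (limma), against 5.59% of all genes tested. The other 10 cytosolic enzymes had 5 positive and 5 negative, with a median of -0.011 and 1 higher at an unadjusted p under 0.05. GFP replicate 2 was the lowest library for 11 of the 11 listed enzymes and for 4 of the other 10, against 16.9% of all genes tested. Without that library the medians were 0.043 and -0.044. The list was chosen with earlier results of these data known and is no independent evidence of a direction.

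The same library stood low for ATF4 targets outside the family. Of 31 such genes found, 30 passed the filter, and 1 further gene of the list was not analysed here. Of these 30, GFP replicate 2 held the lowest value for 23, or 76.7%, against 16.9% of all genes tested. Their median log2 fold change was 0.079, with 26 positive, where 51.4% of all genes tested were positive. At an unadjusted p under 0.05, 5 were higher and 0 lower, against 5.59% and 5.77% of all genes, and 0 passed the adjusted threshold (limma). The groups did not overlap for 10 that were higher and 0 that were lower, against 8.70% and 8.90% of all genes. Without GFP replicate 2 the median was 0.023, with 19 positive and 11 negative. In that fit 4 were higher and 1 lower at an unadjusted p under 0.05 (limma), against 868 and 798 of the 13231 genes tested. This list too was chosen with earlier results of these data known. Besides Ddit3 (log2 fold change 0.26, adjusted p = 0.197), the members with the smallest p over all 6 libraries were Cebpb, a transcription factor gene, and Slc7a11, the cystine transporter gene. Cebpb had 77.0, 69.8 and 71.5 FPKM in GFP-CCNB1IP1 libraries, against 63.6, 59.2 and 56.2 FPKM in GFP libraries (adjusted p = 0.222). Slc7a11 had 17.5, 18.4 and 19.7 FPKM in GFP-CCNB1IP1 libraries, against 15.4, 13.4 and 15.99 FPKM in GFP libraries (adjusted p = 0.278). Slc7a11 was lowest in GFP replicate 2, while Ddit3 and Cebpb were lowest in GFP replicate 3. What set GFP replicate 2 apart was not tested.

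**Figure D4:**
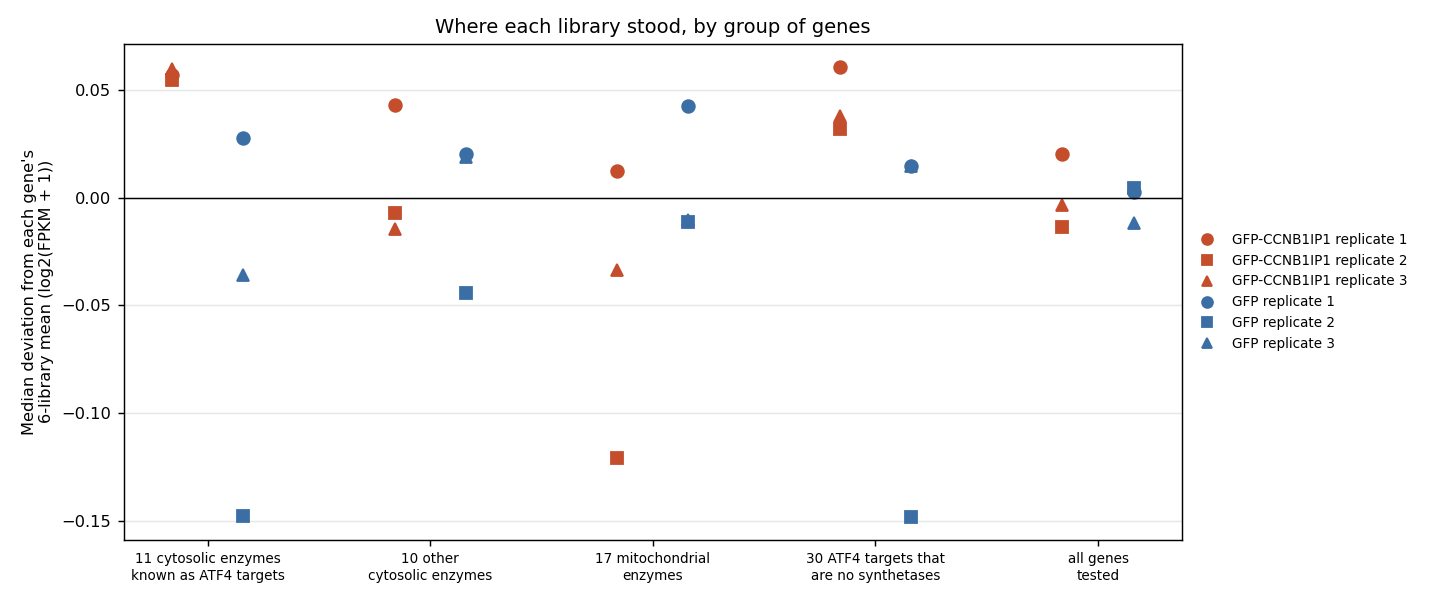
Median over each group of genes of a library's deviation from the gene's mean over the 6 libraries, on the log2(FPKM + 1) scale, 1 point per library, GFP-CCNB1IP1 in red left and GFP in blue right. GFP replicate 2 (blue square) lies at -0.148 for the 11 synthetases listed as ATF4 targets and at -0.148 for the 30 other targets, against 0.005 over all genes tested.

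Sorted by the complex instead, the 8 synthetases of the multisynthetase complex had 6 positive log2 fold changes and a median of 0.050, against 0.069 for the other 13 cytosolic enzymes. Of its scaffold genes Aimp1 had 71.3, 73.1 and 66.0 FPKM in GFP-CCNB1IP1 libraries, against 65.7, 64.5 and 63.7 FPKM in GFP libraries, with no overlap (log2 fold change 0.115, limma, adjusted p = 0.456). Eef1e1 had 9.47, 11.2 and 8.09 FPKM in GFP-CCNB1IP1 libraries, against 8.41, 7.62 and 7.86 FPKM in GFP libraries (0.23, adjusted p = 0.481), and Aimp2 averaged 38.2 ± 3.81 FPKM in GFP-CCNB1IP1 libraries and 39.4 ± 2.75 FPKM in GFP libraries (SD, n = 3 each; -0.048, adjusted p = 0.864). Sorted by fold of the catalytic domain, the 18 tested class I enzymes had 11 positive and a median of 0.049, and the 19 class II enzymes 9 positive and a median of -0.016. None of these groups held a member past the adjusted threshold.

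Other steps of tRNA charging were read from lists of related genes, and 0 of their members passed the adjusted threshold (limma). Mammalian mitochondria make glutaminyl-tRNA without a synthetase of their own for it, by amidating tRNA that was charged with glutamate. All 4 genes of that amidotransferase and of methionyl-tRNA formylation (Gatb, Gatc, Qrsl1 and Mtfmt) had positive log2 fold changes, with a median of 0.142 and 1 higher at an unadjusted p under 0.05, against 5.59% of all genes tested. That was Qrsl1, with 7.29, 7.89 and 8.003 FPKM in GFP-CCNB1IP1 libraries, against 6.77, 6.90 and 6.14 FPKM in GFP libraries (0.20, adjusted p = 0.396). Gatb averaged 5.35 ± 1.00 FPKM in GFP-CCNB1IP1 libraries and 4.47 ± 0.496 FPKM in GFP libraries. Gatc averaged 18.6 ± 0.720 FPKM in GFP-CCNB1IP1 libraries and 17.5 ± 0.899 FPKM in GFP libraries (SD, n = 3 each). Ears2, which supplies the glutamate charge, averaged 6.36 ± 1.15 FPKM in GFP-CCNB1IP1 libraries and 6.50 ± 0.300 FPKM in GFP libraries.

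Among 16 genes of tRNA maturation and export, 9 had positive log2 fold changes and the median was 0.004, with 0 higher and 1 lower at an unadjusted p under 0.05, against 5.59% and 5.77% of all genes. That gene was Tsen54, of the tRNA splicing endonuclease, with 12.8, 11.8 and 12.3 FPKM in GFP-CCNB1IP1 libraries, against 14.4, 13.8 and 13.2 FPKM in GFP libraries (-0.15, limma, adjusted p = 0.431). Trnt1, which adds the CCA end that synthetases charge, had 30.9, 30.4 and 31.8 FPKM in GFP-CCNB1IP1 libraries, against 29.1, 26.3 and 29.5 FPKM in GFP libraries (0.132, adjusted p = 0.456). Rpp40, a subunit of ribonuclease P, averaged 6.28 ± 1.64 FPKM in GFP-CCNB1IP1 libraries and 4.76 ± 0.482 FPKM in GFP libraries (SD, n = 3 each), and its groups overlapped.

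Genes of translation factors showed medians near 0. The 7 cytosolic elongation genes had a median log2 fold change of 0.002 with 4 positive, and Eef1a2, a form of the factor that carries charged tRNA to the ribosome, had 57.7, 55.0 and 50.8 FPKM in GFP-CCNB1IP1 libraries, against 58.8, 63.0 and 58.7 FPKM in GFP libraries (-0.14, limma, adjusted p = 0.443). Eef1b2 averaged 309.0 ± 15.4 FPKM in GFP-CCNB1IP1 libraries and 326.1 ± 12.9 FPKM in GFP libraries. Eif5a averaged 361.1 ± 23.0 FPKM in GFP-CCNB1IP1 libraries and 344.3 ± 10.3 FPKM in GFP libraries (SD, n = 3 each). The 10 mitochondrial translation factors had a median log2 fold change of -0.014 with 4 positive. Guf1, a mitochondrial elongation factor, had 11.4, 10.5 and 10.8 FPKM in GFP-CCNB1IP1 libraries, against 10.3, 9.67 and 9.13 FPKM in GFP libraries (0.157, adjusted p = 0.455). Mrrf, the ribosome recycling factor, averaged 7.86 ± 1.86 FPKM in GFP-CCNB1IP1 libraries and 9.67 ± 0.894 FPKM in GFP libraries. The release factor Mtrf1l averaged 7.09 ± 1.93 FPKM in GFP-CCNB1IP1 libraries and 6.05 ± 0.200 FPKM in GFP libraries.

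The 7 genes of proofreading and of selenocysteine charging had a median of -0.009 with 3 positive and 0 at an unadjusted p under 0.05 in either direction. Pstk, the kinase that acts on seryl-tRNA for selenocysteine, averaged 14.6 ± 3.41 FPKM in GFP-CCNB1IP1 libraries and 12.9 ± 3.30 FPKM in GFP libraries (SD, n = 3 each). Sepsecs averaged 4.41 ± 0.187 FPKM in GFP-CCNB1IP1 libraries and 4.75 ± 0.386 FPKM in GFP libraries, and Secisbp2 averaged 4.81 ± 0.357 FPKM in GFP-CCNB1IP1 libraries and 5.10 ± 0.155 FPKM in GFP libraries. The 11 genes around the kinase that senses uncharged tRNA had a median of -0.017 with 5 positive and 1 higher at an unadjusted p under 0.05, against 5.59% of all genes. That gene was Eif2b3, a subunit of the guanine exchange factor of translation initiation, with 14.8, 13.3 and 12.8 FPKM in GFP-CCNB1IP1 libraries, against 12.2, 11.7 and 11.8 FPKM in GFP libraries (0.173, limma, adjusted p = 0.416). Impact averaged 38.8 ± 1.09 FPKM in GFP-CCNB1IP1 libraries and 40.9 ± 1.94 FPKM in GFP libraries. Ppp1r15a averaged 94.9 ± 5.35 FPKM in GFP-CCNB1IP1 libraries and 90.3 ± 4.73 FPKM in GFP libraries.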

How the data were processed

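Polyadenylated RNA of 3 GFP-CCNB1IP1 and 3 GFP libraries was sequenced, per the labels' protocols. The submitters' processing notes list HISAT2 and Cufflinks, with no version. Each library has its own table of deposited FPKM values per gene with interval bounds, per the file headers. For genome build, annotation release, strand and depth the entry is: not given in the sources used here.

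Rows with the same identifier were summed (53537 rows, 53492 genes), start positions, taken to count from 0, are printed 1-based, and log2(FPKM + 1) was fitted by limma 3.58.1 (R 4.3.3, trend of variance with mean) for the 13231 genes with a mean of at least 1 FPKM. P-values were adjusted over all of them by the Benjamini-Hochberg method. Fold changes on this scale understate the change of low genes. An exact permutation test of 3 against 3 cannot go below 0.1. Fragments behind a value were estimated as (FPKM/SE) squared, with the upper bound taken as 2 SE above. The fit was run on simulated data with changes larger than any member's fitted difference. That check does not cover differences of the size seen here. Members, gene lists and tests were chosen with earlier results of these data known. By rule, every library is given for the 4 highest members of each compartment, the 6 with the smallest p, the 3 highest and 3 lowest ratios, Gars and Kars, and up to 3 genes of each other list are named by p. Rars2, Sars2, Vars, Qars, Tarsl2, Ears2, Nrn1, Rab3gap2 and further genes that overlap a member were named after their values were seen. Alternatives were pseudocounts of 0.1 and 5, no filter or a mean of 5 FPKM, median-of-ratios, quantile and TPM scaling, the replicate number as a block, no trend, repeated identifiers left out, Gars and Kars left out, Lars2 left out (added after seeing the data), and single libraries left out one after the other. Values of 1 member and of some marker genes are not reported here, and that member is left out of the figures but counted in totals.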

Additional observations from a re-analysis of the deposited data

How the results depend on the processing

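In all 16 settings of the fit, 0 synthetases passed the adjusted threshold (limma, smallest adjusted p of a member 0.262), and 20 of 37 tested members never changed sign. The median log2 fold change stayed positive for cytosolic and negative for mitochondrial enzymes in every setting, from 0.036 (without GFP replicate 2) to 0.102 (without GFP replicate 1) and from -0.099 (without GFP-CCNB1IP1 replicate 1) to -0.016 (without GFP-CCNB1IP1 replicate 2). Of all genes, 2 passed with TPM, and 0 with no filter, with a pseudocount of 5, without the trend and with the replicate number as a block, where 2186, 1505, 1438 and 1392 genes had an unadjusted p under 0.05. With single libraries left out the count ran from 0 to 4 genes. Same-numbered libraries did not deviate together (correlations 0.023, -0.009 and -0.011), so the numbers were not taken as pairs, and the replicate block moved no synthetase across the threshold. The difference in the log2 ratio of summed cytosolic to mitochondrial FPKM was 0.125 (within-group SD 0.101), 0.063 without GFP-CCNB1IP1 replicate 2, 0.196 without GFP-CCNB1IP1 replicate 1, and 0.151 with Lars2 left out. The sign of 17 members, none past the threshold, changed in some setting. With TPM the log2 fold changes of Hars and Yars2 were -0.0014 and -0.0051. With single libraries left out they ran from -0.050 to 0.070 for Hars, -0.035 to 0.048 for Lars, -0.030 to 0.053 for Kars, -0.156 to 0.0042 for Qars, -0.124 to 0.079 for Tars, -0.072 to 0.032 for Dars and -0.096 to 0.025 for Tarsl2. For mitochondrial enzymes they ran from -0.32 to 0.38 for Lars2, -0.038 to 0.089 for Yars2, -0.189 to 0.061 for Wars2, -0.044 to 0.131 for Nars2, -0.037 to 0.054 for Aars2, -0.122 to 0.0081 for Tars2, -0.154 to 0.070 for Ears2, -0.261 to 0.021 for Vars2 and -0.080 to 0.015 for Cars2. The cause of these shifts was not tested. Counting error was widest for Wars2, Fars2 and Pars2, with as few as 29.4, 30.7 and 31.5 estimated fragments behind a value.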
